A study of Mus musculus with 8 samples.

Results

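The genes described here encode integrin subunits, the collagen-binding discoidin receptors and the core proteins of focal adhesions. Members were chosen by gene symbol from a list of 45, and 42 of them had an array row annotated with their symbol alone, out of 22180 genes measured in this way. Ilk and Lims2 were annotated only on rows shared with other genes, and these and Itga10 were not analysed here. Itgav and Ddr1 had several rows each, and the brightest of them on average was taken.

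Expression was measured on Affymetrix arrays, 1 per tumor, in intact mammary tumors of congenic FVB/NJ mice aged 3 to 4 months. All mice carried the MMTV-PyMT transgene, which drives polyoma middle T antigen in the mammary epithelium, and floxed Mmp14 alleles, written Mmp14(f/f). The conditional knockout group (cKO) consisted of 4 tumors from mice with an MMTV-Cre transgene as well. The group called wild type by the submitters (WT) consisted of 4 tumors from Mmp14(f/f) littermates without Cre. Presence of Cre and loss of Mmp14 thus go together between the groups. The MMTV promoter directs Cre mainly to mammary epithelium, while the RNA came from the whole tumor with its stroma, vessels and immune cells. Mmp14 codes for MT1-MMP, a protease of the plasma membrane whose substrates include fibrillar collagen.

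Integrins are heterodimers of 1 alpha and 1 beta subunit that span the membrane. The pair decides which matrix protein or cell-surface ligand is bound, so that collagen, laminin, fibronectin and leukocyte ligands each have their own receptors. Inside the cell, talins and kindlins bind the beta tails and switch the receptor on, and vinculin, paxillin, zyxin, tensins and the complex of integrin-linked kinase with PINCH and parvin proteins tie it to actin. In mammary gland, luminal and basal cells use beta1 and beta4 integrins to hold on to the basement membrane, fibroblasts use collagen receptors, and leukocytes carry the beta2 and beta7 families.

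The deposited values are log2 signals, with array medians between 4.27 and 4.31 over the rows with 1 symbol. Mmp14 itself had log2 signals of 7.98, 7.74, 7.44 and 7.72 in cKO tumors 1 to 4, against 8.86, 9.12, 9.31 and 9.17 in WT tumors 1 to 4. The groups did not overlap, and limma gave a difference of −1.40 with an adjusted p of 0.0444. With 1 tumor left out the adjusted p ran from 0.0429 to 0.211 and was above 0.05 without cKO 2, cKO 4 or any WT tumor. Keratin 8 and keratin 18 signals (Krt8 and Krt18), which mark luminal epithelium, averaged 10.23 and 10.25 in cKO tumors and 10.38 and 10.49 in WT tumors. A row is called dim here when its mean log2 signal was under 5 in both groups, and no fold is given for it, since no detection call was used. This held for 10 of the 42 members.

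No member passed an adjusted p of 0.05 in limma's comparison of cKO with WT tumors, a threshold that 2 of all 23521 rows passed (0.0085%). At an unadjusted p below 0.05, 4 members were higher in cKO (9.52% of the 42) and 5 were lower (11.9%). Over 1 row per gene the same cut held 5.7% of genes as higher and 4.2% as lower, and over the genes with a mean of at least 5 it held 8.16% and 6.66%. In either direction 9 members met this cut, against 9.9% of all genes and 14.8% of those brighter genes. The 4 higher members were Parvg, Fermt3, Itgb2 and Tln2, and the 5 lower ones were Itgbl1, Itga3, Itga11, Itgav and Itga2. The count of higher members was 2 without cKO 4, WT 3 or WT 4, and that of lower members was 8 without cKO 2 and 3 without WT 1. In 2 members, Parvg and Fermt3, every cKO tumor lay above every WT tumor, and in 2, Itgbl1 and Itga3, every cKO tumor lay below (4.76% of members each way, against 3.76% and 1.75% of all genes, and 4.98% and 2.6% of those with a mean of at least 5). With fewer tumors to separate, the lower count was 4 without cKO 2 and 5 without cKO 4, and the higher count was 4 without WT 1. Of all 42 members 27 were lower in cKO and 15 higher, with a median difference of −0.07. Over all genes the median was 0.02 and 43.3% were lower.

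**Figure D1:**
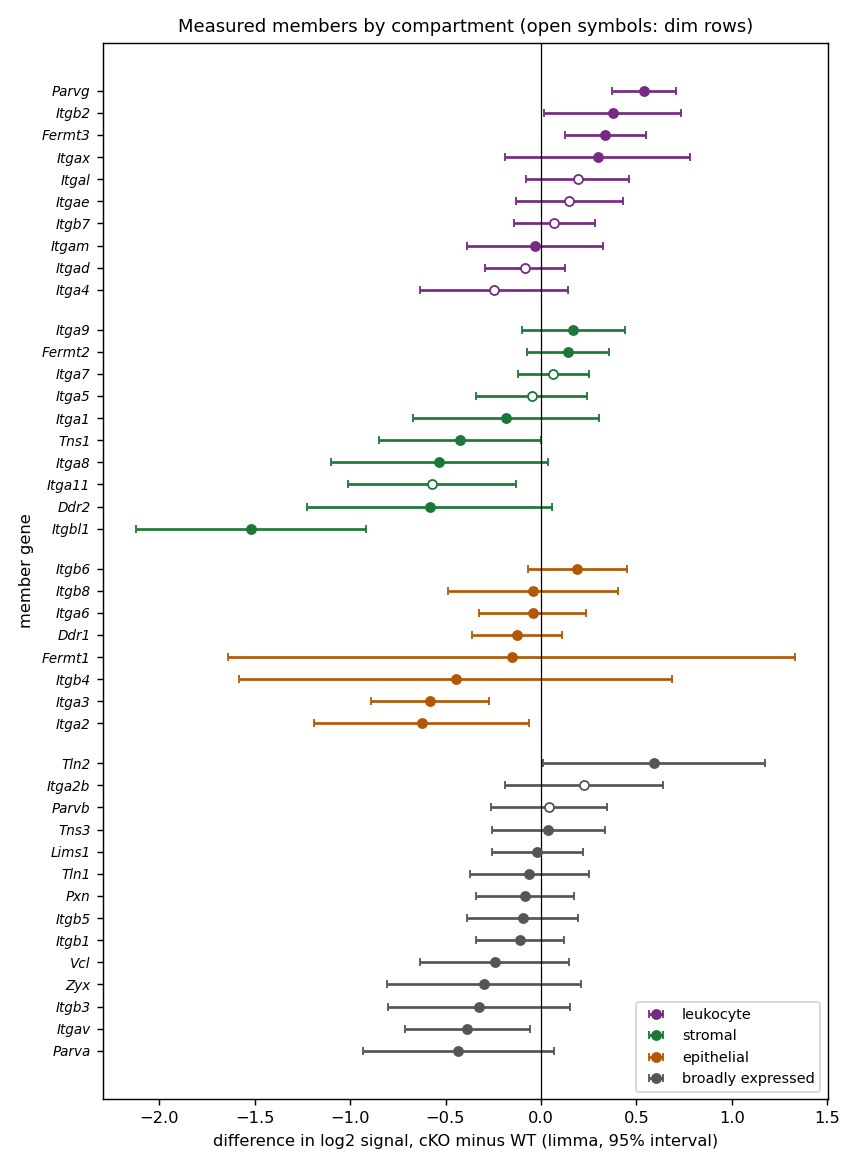
Difference in log2 signal between cKO and WT tumors (x axis, cKO minus WT, limma estimate with its 95% interval) for the 42 measured members (y axis), grouped by the cells they are best known from. Open circles are dim rows. Parvg, at 0.54, leads the leukocyte members and Itgbl1, at −1.52, lies farthest from 0 of all members.

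Of the 10 leukocyte members measured, 7 were higher in cKO tumors and 3 lower, with a median difference of 0.17, where 12573 of all 22180 genes were higher. At an unadjusted p below 0.05, 3 were higher, against 5.7% of all genes. Parvg encodes gamma-parvin, the parvin of blood cells. Fermt3 encodes kindlin-3, the kindlin of blood cells, without which leukocyte and platelet integrins are not switched on. Itgb2 encodes the beta subunit that the leukocyte integrins Itgal, Itgam, Itgax and Itgad share.

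Parvg had log2 signals of 5.33, 5.24, 5.33 and 5.29 in cKO tumors 1 to 4, against 4.79, 4.83, 4.78 and 4.65 in WT tumors 1 to 4. The cKO tumors lay within a narrow band that the WT tumors did not reach. The difference was 0.54 (SE 0.07, 95% interval 0.37 to 0.71), and limma's adjusted p was 0.138. All 4 WT signals were under the limit of 5 used for dim rows, so no fold is given. It had the smallest p of the 42 members, and an exact permutation of the 8 tumors gave 0.0286, the smallest value that 4 against 4 allows. Parvb, the related parvin whose gene neighbours Parvg, was dim and differed by 0.04 (95% interval −0.26 to 0.34). Parva, the parvin of most adherent cells, stood at −0.43 (SE 0.22).

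Fermt3 had log2 signals of 5.53, 5.58, 5.37 and 5.59 in cKO tumors, against 5.21, 5.32, 5.19 and 4.999 in WT tumors. The lowest cKO tumor, cKO 3, lay just above the highest WT tumor, WT 2. The difference was 0.34 (SE 0.09), with an adjusted p of 0.315 in limma and an exact permutation p of 0.0286. Neither of the other kindlins had an unadjusted p below 0.05. Fermt2, found in stromal and epithelial cells, stood at 0.14 (SE 0.09), and Fermt1, the epithelial kindlin, at −0.15 (SE 0.66).

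Itgb2 had log2 signals of 6.24, 5.94, 6.16 and 6.36 in cKO tumors, against 6.21, 5.86, 5.54 and 5.59 in WT tumors. WT 1 lay within the cKO range, so the groups overlapped. The difference was 0.37 (SE 0.16, limma adjusted p 0.497, exact permutation p 0.0857). It was 0.06 among arrays 1 to 4 and 0.69 among arrays 5 to 8, as the labels number them, with 2 tumors per group in each set.

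The alpha subunits that pair with Itgb2 or with Itgb7 gave a mixed picture, and none had an unadjusted p below 0.05. Itgax, known from dendritic cells and tissue macrophages, was at 0.30 (SE 0.21), with cKO tumors between 5.41 and 5.78 and WT tumors between 4.73 and 5.84. Itgam, of neutrophils and macrophages, was at −0.03 (SE 0.16). Itgal, the lymphocyte partner that binds Icam1, was dim at 0.19 (SE 0.12). Itgae and Itgb7, which together bind E-cadherin on epithelium, were dim at 0.15 and 0.07. Itga4, the receptor for Vcam1, and Itgad were dim at −0.25 and −0.08.

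Marker lists of leukocytes were set beside these members. All 5 pan-leukocyte markers were higher in cKO, and their mean log2 signal ran from 5.56 to 5.77 in cKO tumors and from 5.11 to 5.65 in WT tumors. Of 9 macrophage markers 8 were higher, 7 of them at an unadjusted p below 0.05, with mean signals from 6.72 to 7.06 in cKO tumors and from 6.17 to 6.63 in WT tumors. That cut held 5.7% of all genes as higher, and 8.16% of those with a mean of at least 5. The 10 leukocyte members had mean signals from 4.78 to 4.86 in cKO tumors and from 4.47 to 4.88 in WT tumors, and WT 4 was lowest in all 3 lists. WT 1, at 4.88, was highest of the 8 tumors for the members, while its macrophage mean of 6.63 lay below every cKO tumor. T cell and neutrophil markers overlapped between the groups, with 3 of 5 higher in each list, and array signals have no value of 0. Most of these rows had low signals, with a mean of at least 5 in 0 of the 5 T cell markers and 1 of the 5 neutrophil markers. Of the T cell markers 1, Cd3d, was lower at an unadjusted p below 0.05, as were 4.2% of all genes. In whole tumors, more or fewer cells of a type and more or less RNA per cell cannot be told apart, and the part of leukocyte content in the Parvg, Fermt3 and Itgb2 values was not tested.

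The promoters of Parvg and Fermt3 are shown because these were the 2 members with every cKO tumor above every WT tumor. The sequences run from 250 bases before to 50 after an annotated start in RefSeq, build GRCm38.p6, and 6 of the 10 leukocyte members had an entry in that table. Capitals mark GAGGAA or its reverse complement TTCCTC, the core letters bound by the myeloid factor PU.1, with no overlap with another motif searched.
Parvg, chr15:84324470-84324769, plus strand: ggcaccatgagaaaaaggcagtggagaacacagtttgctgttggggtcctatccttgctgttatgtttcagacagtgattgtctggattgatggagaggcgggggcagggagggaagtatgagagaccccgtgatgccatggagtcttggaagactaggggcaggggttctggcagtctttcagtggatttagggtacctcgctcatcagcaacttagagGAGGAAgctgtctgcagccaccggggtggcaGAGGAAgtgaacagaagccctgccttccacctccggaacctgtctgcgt
Fermt3, chr19:7019420-7019719, minus strand: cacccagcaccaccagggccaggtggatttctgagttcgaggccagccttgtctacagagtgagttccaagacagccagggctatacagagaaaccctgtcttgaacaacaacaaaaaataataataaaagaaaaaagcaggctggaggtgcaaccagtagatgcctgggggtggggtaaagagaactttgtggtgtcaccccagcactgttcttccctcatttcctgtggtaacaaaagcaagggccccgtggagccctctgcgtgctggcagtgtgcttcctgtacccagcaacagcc
The Parvg window held the motif in 2 places and the Fermt3 window in none. A second annotated start of Parvg had none either. Of the 6 leukocyte members, 3 (Parvg, Itgam and Itgb7) had it, as had 12 of the 31 members of any kind with an entry, against 31.3% of 27025 genes with a promoter in the table. A match is a run of letters and not a shown binding site.

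**Figure D2:**
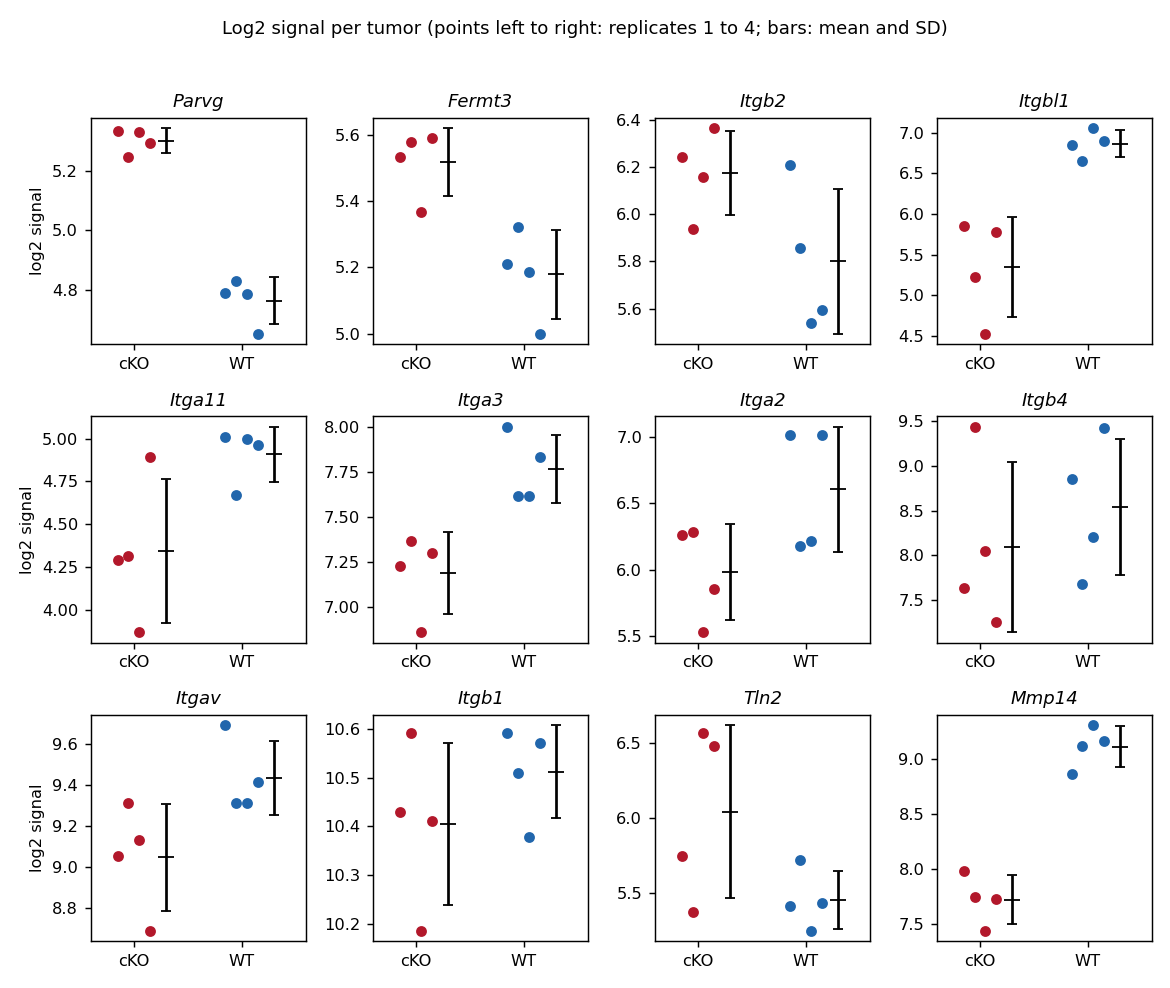
Log2 signal (y axis of each panel, own scale) of the 11 members described tumor by tumor and of Mmp14, in cKO and WT tumors (x axis). Points are tumors 1 to 4 from left to right, and the bars are mean and SD (n = 4). Parvg, Fermt3, Itgbl1, Itga3 and Mmp14 show no overlap between the groups, while Itgb4 covers nearly the same range in both.

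Stromal members were mostly lower in cKO tumors. Of the 10 measured, 7 were lower and 3 higher, with a median difference of −0.30, where 43.3% of all genes were lower. At an unadjusted p below 0.05, 2 were lower, Itgbl1 and Itga11, against 4.2% of all genes.

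Itgbl1 encodes an integrin-like protein with the cysteine-rich repeats of beta subunits but no membrane anchor. Its log2 signals were 5.85, 5.23, 4.52 and 5.78 in cKO tumors 1 to 4, against 6.85, 6.65, 7.06 and 6.89 in WT tumors 1 to 4. Each cKO tumor lay below each WT tumor, and the cKO tumors were the more scattered, with an SD of 0.61 against 0.17 in WT tumors. The difference of −1.52 (SE 0.27) is a signal at 34.9% of WT (95% interval 23.0% to 53.1%), with a limma adjusted p of 0.142 and an exact permutation p of 0.0286. Leaving out 1 tumor gave differences from −1.69 to −1.24.

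Itga11, whose product joins beta1 to form a collagen receptor of fibroblasts, was dim. It had log2 signals of 4.29, 4.31, 3.87 and 4.89 in cKO tumors, against 5.01, 4.67, 4.996 and 4.96 in WT tumors. The groups overlapped only through cKO 4, which lay above WT 2. The difference was −0.57 (SE 0.19, limma adjusted p 0.415, exact permutation p 0.0571).

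Ddr2, the discoidin receptor of mesenchymal cells, differed by −0.58 (SE 0.28), and cKO 4 at 5.84 was above every WT tumor while cKO 3 was lowest at 4.29. Itga8, a receptor for nephronectin in mesenchyme, was at −0.53 (SE 0.25), and Tns1, a tensin of fibrillar adhesions, at −0.42 (SE 0.19). The collagen receptor Itga1 was at −0.18, the fibronectin receptor Itga5 at −0.05, Itga7 at 0.06 and Itga9 at 0.17. Itga5 and Itga7 were dim.

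All 10 fibroblast markers were lower in cKO, 5 of them at an unadjusted p below 0.05. That cut held 4.2% of all genes as lower and 6.66% of those with a mean of at least 5. The mean log2 signal of the fibroblast markers ran from 5.56 in cKO 3 to 7.71 in cKO 4, against 7.29 to 7.82 in WT tumors. In cKO 4 this mean thus lay within the WT range, while Itgbl1, at 5.78, lay below every WT tumor. All 8 endothelial markers were lower as well, from 5.57 to 6.32 in cKO tumors and from 5.98 to 6.40 in WT tumors. The mean of the 10 stromal members ran from 5.34 to 5.94 in cKO tumors and from 5.91 to 6.07 in WT tumors. In these members and in the fibroblast and endothelial lists, cKO 3 was lowest and cKO 4 highest of the cKO tumors. Of 7 smooth muscle and pericyte markers 6 were lower, with means from 5.17 to 5.74 in cKO tumors and from 5.72 to 6.05 in WT tumors. There cKO 3 was lowest as well, but cKO 2 was highest of the cKO tumors. Without cKO 3 the median difference of the stromal members was −0.25. The part of stromal content in these values was not tested.

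**Figure D3:**
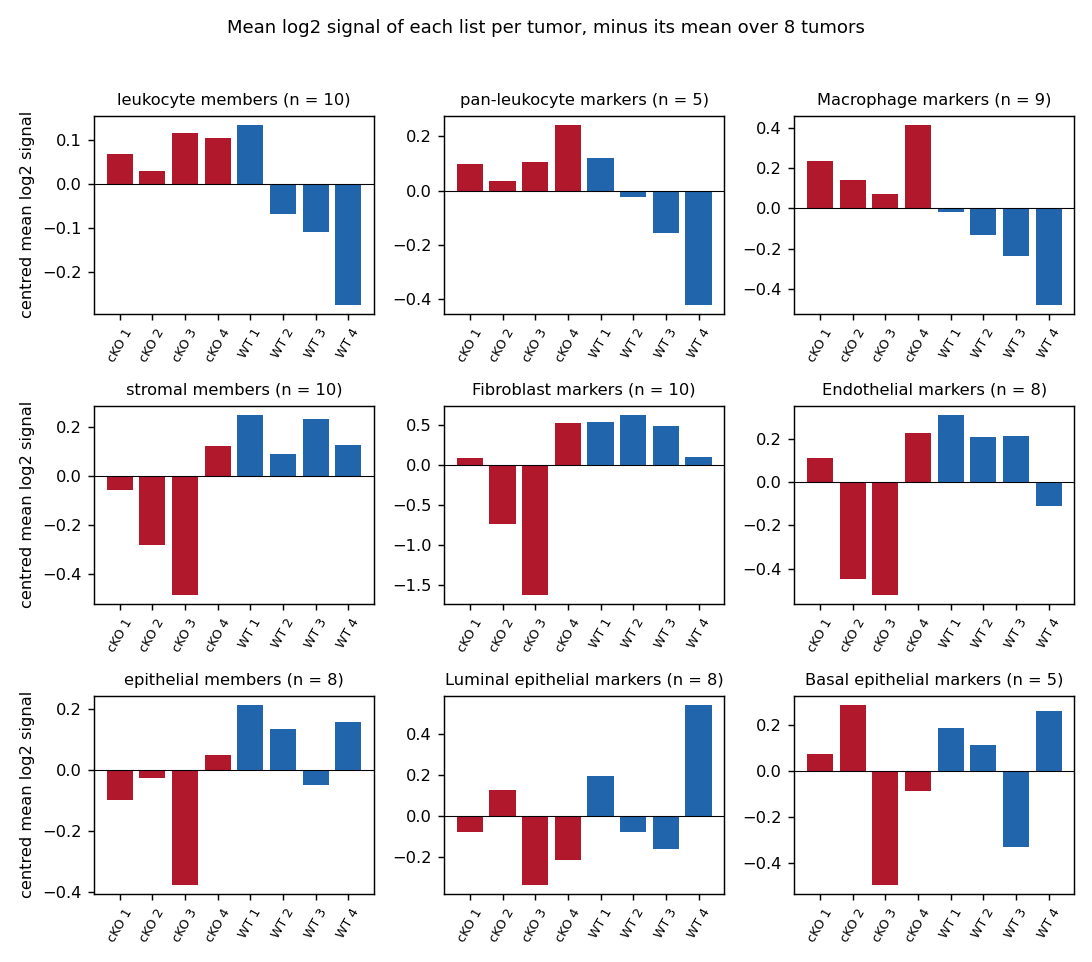
Mean log2 signal of a list in each tumor minus its mean over the 8 tumors (y axis), for the leukocyte, stromal and epithelial members and for marker lists of the same cells, with cKO tumors in red and WT tumors in blue (x axis). The stromal members and the fibroblast markers are both lowest in cKO 3, and the leukocyte members and both leukocyte marker lists are lowest in WT 4.

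Epithelial members were lower in cKO in 7 of 8 cases, with a median difference of −0.14, which was −0.0087 without WT 2. At an unadjusted p below 0.05, 2 were lower, Itga3 and Itga2, and none was higher. Among all genes 43.3% were lower, and 4.2% lower at this cut. For genes with a mean of at least 5 these shares were 48.5% and 6.66%. Itga3, with beta1, is a laminin receptor, and Itga2, with beta1, is the main collagen receptor of mammary epithelium.

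Itga3 had log2 signals of 7.23, 7.37, 6.86 and 7.30 in cKO tumors, against 8.004, 7.62, 7.62 and 7.83 in WT tumors. The groups did not overlap, and cKO 3 was lowest. The difference was −0.58 (SE 0.14), or 66.9% of the WT signal (95% interval 54.0% to 82.8%), with a limma adjusted p of 0.220 and an exact permutation p of 0.0286. It was −0.51 among arrays 1 to 4 and −0.65 among arrays 5 to 8.

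Itga2 had log2 signals of 6.26, 6.28, 5.53 and 5.86 in cKO tumors, against 7.02, 6.18, 6.22 and 7.01 in WT tumors. WT 1 and WT 4 stood above the rest, and WT 2 and WT 3 lay within the cKO range. The difference was −0.62 (SE 0.25, limma adjusted p 0.481, exact permutation p 0.171).

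Itgb4, which pairs with Itga6 in hemidesmosomes, was among the most variable members. It had log2 signals of 7.63, 9.44, 8.05 and 7.25 in cKO tumors, against 8.85, 7.68, 8.21 and 9.43 in WT tumors. Both groups held a tumor near 9.4 and a tumor near or below 7.7, and the difference was −0.45 (SE 0.50). Its partner Itga6 was steady, at −0.04 (SE 0.12) with an SD over the 8 tumors of 0.17 against 0.84 for Itgb4.

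Fermt1 varied still more, between 5.71 and 8.93 in cKO tumors and between 6.58 and 7.89 in WT tumors. Ddr1, the epithelial discoidin receptor, was at −0.12 (SE 0.10). The receptors that release active TGF-beta, Itgb6 and Itgb8, were at 0.19 (SE 0.11) and −0.04 (SE 0.20). Of 8 luminal markers 7 were lower in cKO, with means from 9.40 to 9.86 in cKO tumors and from 9.57 to 10.3 in WT tumors. Of 5 basal markers 3 were lower, with means from 4.78 to 5.56 in cKO tumors and from 4.94 to 5.53 in WT tumors. The mean of the epithelial members ran from 7.31 in cKO 3 to 7.74 in cKO tumors and from 7.64 to 7.90 in WT tumors, and the luminal and basal means were lowest in cKO 3 as well. The part of epithelial content in the Itga3 and Itga2 values was not tested.

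Of the 14 broadly expressed subunits and adaptors measured, 10 were lower in cKO and 4 higher, with a median difference of −0.09. At an unadjusted p below 0.05, 1 was lower, Itgav, and 1 was higher, Tln2 (7.14% of the 14 each way). This is near the 4.2% and 5.7% of all genes, and the 6.66% and 8.16% of genes with a mean of at least 5. Itgb1, the beta subunit shared by the collagen, laminin and fibronectin receptors, had log2 signals of 10.43, 10.59, 10.19 and 10.41 in cKO tumors, against 10.59, 10.51, 10.38 and 10.57 in WT tumors. The WT tumors lay within the cKO range, and the difference was −0.11 (95% interval −0.34 to 0.12). Itgav, which forms vitronectin and TGF-beta receptors with beta3, beta5, beta6 and beta8, had log2 signals of 9.06, 9.31, 9.13 and 8.69 in cKO tumors, against 9.69, 9.31, 9.31 and 9.42 in WT tumors. The highest cKO tumor lay level with the lowest WT tumors, and the difference was −0.39 (SE 0.14, limma adjusted p 0.454, exact permutation p 0.0857). Averaged with its second and much dimmer row, the difference was −0.15. Its beta partners Itgb3 and Itgb5 were at −0.33 (SE 0.21) and −0.10 (SE 0.13). Itga2b, the platelet partner of Itgb3, was dim at 0.22 (SE 0.18) and stood at 0.02 without cKO 3. Of 4 platelet markers, all dim, 3 were higher in cKO.

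Among the adaptors, Tln2 had log2 signals of 5.75, 5.37, 6.57 and 6.48 in cKO tumors, against 5.41, 5.72, 5.24 and 5.43 in WT tumors. Only cKO 3 and cKO 4 stood out, so that the difference of 0.59 (SE 0.26, limma adjusted p 0.509, exact permutation p 0.171) was −0.01 among arrays 1 to 4 and 1.19 among arrays 5 to 8. The main talin, Tln1, was at −0.06 (SE 0.14). Vinculin (Vcl) was at −0.24 (SE 0.17), zyxin (Zyx) at −0.30 (SE 0.22), paxillin (Pxn) at −0.08 (SE 0.11), the PINCH protein Lims1 at −0.02 (SE 0.11) and Tns3 at 0.04 (SE 0.13).

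Grouped by ligand, the 5 measured collagen receptors Itga2, Ddr2, Itga11, Itga1 and Ddr1 had differences from −0.62 to −0.12, with a median of −0.57. At an unadjusted p below 0.05, 2 were lower, Itga2 and Itga11, a cut met by 4.2% of all genes. Itga1 stood at 0.045 without WT 3, whose signal of 6.64 was the highest, and Ddr1 at −0.04 without WT 2. Of the laminin receptor subunits Itga3, Itga6, Itga7 and Itgb4, 3 of 4 were lower, with a median of −0.24. These groups cut across the epithelial and stromal members and share genes with them.

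**Figure D4:**
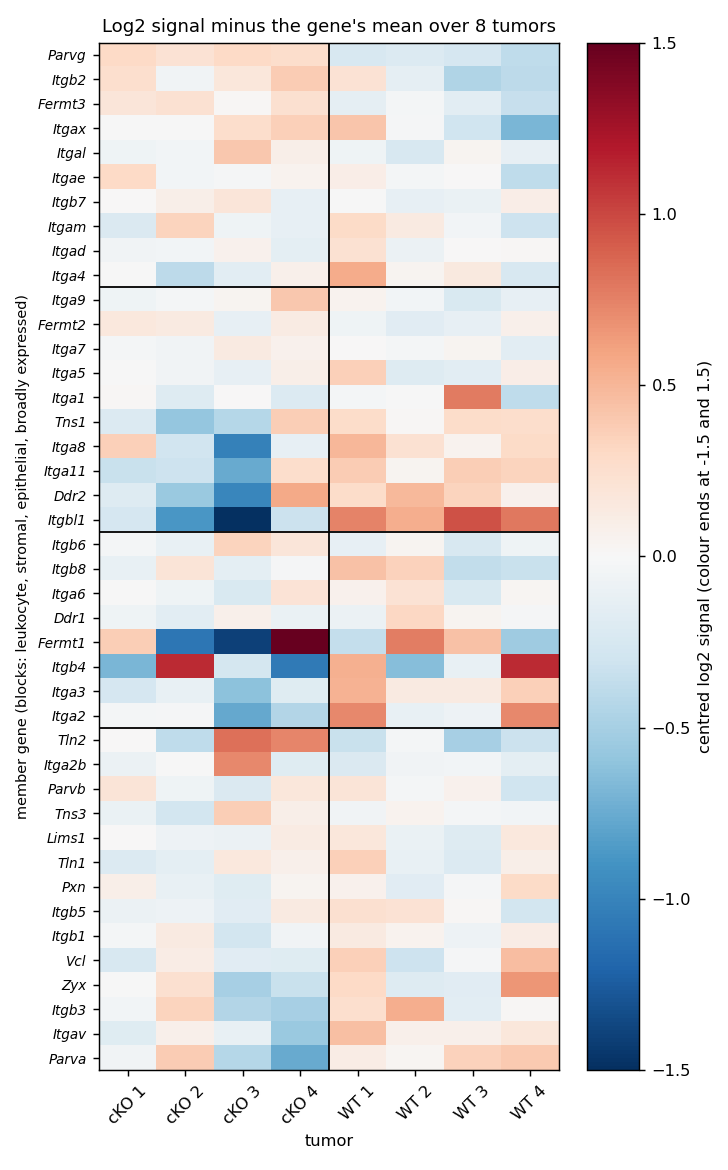
Log2 signal minus the gene's mean over the 8 tumors (colour) for the 42 members (y axis, blocks of leukocyte, stromal, epithelial and broadly expressed members) in each tumor (x axis). Colours end at −1.5 and 1.5. Parvg and Itgbl1 differ by group across all tumors, whereas Fermt1 and Itgb4 take high and low values within each group.

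Partner genes were then compared across the 8 tumors, to ask whether subunits of 1 receptor or complex vary together. Of 15 pairs listed, 13 had both genes measured, 7 had a positive correlation, and none passed after adjustment over the 13, with 1 at an unadjusted exact permutation p below 0.05. That pair was Itgax and Itgb2, with Pearson's r of 0.86 (exact permutation p 0.00503, adjusted p 0.0655) and Spearman's rho of 0.79 (exact permutation p 0.0279, adjusted p 0.360). Without the 2 tumors farthest from the median of Itgax r was 0.87, and after subtraction of the group means it was 0.85. Itgam and Itgb2 had an r of 0.12 (exact permutation p 0.779, rho −0.12 with exact permutation p 0.793), −0.03 without the 2 farthest tumors. Itga6 and Itgb4 had an r of −0.28 (exact permutation p 0.491, rho −0.33 with exact permutation p 0.428), −0.70 without the 2 farthest. The adjusted p of these pairs were 0.844 and 0.581 for r, and 0.910 and 0.723 for rho.

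Other genes of adhesion were taken from 3 lists of 60 genes in all, of which 54 were measured. At an unadjusted p below 0.05, 9 were lower in cKO (16.7%) and 0 higher, against 4.2% and 5.7% of all genes. Among genes with a mean of at least 5 these shares were 6.66% and 8.16%, and 48 of the 54 had such a mean. None passed limma's adjusted threshold. The count at the unadjusted cut was 14 without cKO 2 and 5 without WT 1. Of the 54, 44 were lower, with a median of −0.15, where 43.3% of all genes and 48.5% of those with a mean of at least 5 were lower. The ligands had 6 of these 9, the actin linkers and LIM proteins 2 of 19 measured, and the signalling proteins around focal adhesion kinase 1 of 17.

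Tns2, a tensin like Tns1 and Tns3, had log2 signals of 6.45, 6.68, 5.96 and 6.04 in cKO tumors, against 6.92, 6.96, 7.03 and 6.91 in WT tumors. All 4 cKO tumors lay below the WT tumors, and the difference was −0.68 (SE 0.15, limma adjusted p 0.211, exact permutation p 0.0286). Svil, which encodes the actin-binding supervillin, was at −0.32 (SE 0.12), and Git1, an adaptor that binds paxillin, at −0.37 (SE 0.13). Bcar1, a docking protein downstream of focal adhesion kinase, was at −0.34 (SE 0.16).

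Among 18 measured ligands 16 were lower, where 43.3% of all genes and 48.5% of those with a mean of at least 5 were lower. Lamb3, a laminin chain of epithelial basement membrane, had log2 signals of 7.42, 7.79, 6.87 and 7.34 in cKO tumors, against 8.49, 7.82, 7.82 and 8.51 in WT tumors. The groups did not overlap, although cKO 2 came close to WT 2 and WT 3, and the difference was −0.81 (SE 0.23, limma adjusted p 0.323). Lama3 was at −0.80 (SE 0.20) and Lama5 at −0.73 (SE 0.30). Col4a1, a basement membrane collagen bound by Itga1 and Itga2, was at −0.40 (SE 0.16). Fibronectin (Fn1) was at −0.39 (SE 0.41), and at 0.04 without cKO 3, and the Itga8 ligand nephronectin (Npnt) at −0.09 (SE 0.11). The ligands of leukocyte integrins Icam1 and Vcam1 were at −0.22 (SE 0.17) and −0.02 (SE 0.24). Col1a1 at −1.36 (SE 0.38) and Col1a2 at −1.27 (SE 0.48), the chains of type I collagen, are also among the fibroblast markers. The mean of the 18 ligands was lowest in cKO 3, at 6.44, with 7.05 to 7.35 in the other cKO tumors and 7.39 to 7.65 in WT tumors, and the part of stromal content in the ligand values was not tested.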

How the data were processed

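The submitters' processing notes name RMA and limma, with no version or role recorded. The values deposited by the authors are log2 signals, 1 per row and tumor. Biotinylated cDNA was made from 400 ng of total RNA, per the labels' protocols. Groups come from the labels, which call the samples biological replicates. Of 41345 rows, the 23521 with 1 gene symbol were tested, 1814 had several symbols and 16010 are unnamed here. Symbols were updated by gene identifier from RefSeq (GRCm38.p6) for 23328 rows.

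All 23521 rows were fitted with limma 3.58.1 in R 4.3.3 (lmFit, eBayes, cKO minus WT, no covariate, two-sided), with Benjamini-Hochberg adjustment over all rows and a threshold of 0.05. Single genes were also tested by exact two-sided permutation of the 8 tumors. In simulations of cKO against WT with 23521 independent rows, limma called 28.4% of changes of 0.5 and 86.4% of changes of 1 on the log2 scale. Each simulated set held 200 changed rows, by 0.5 to 3 log2 units. In the data only 2 rows passed, which makes the adjusted threshold stricter, so these shares do not carry over to the data. Members and lists were chosen with earlier results of these data known. Values in every tumor are given for members with an unadjusted p below 0.05 or groups without overlap, and for Itgb1, Itgb2 and Itgb4, and other adhesion genes were drawn from the 8 with the smallest p in each list. Fn1, Npnt, Icam1 and Vcam1 lie outside that rule and were added, as ligands of members, after their values were seen. The number of arrays limits the precision. Alternatives were other scalings, a filter on dim rows, all rows, an intensity trend, the mean of a gene's rows, blocks and leaving out each tumor.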

Additional observations from a re-analysis of the deposited data

Results flagged for a closer look

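In 3 of 86 groups tested, which are the 42 members and Mmp14 in each genotype, 1 tumor stood far from the other 3, and chance flags about 1 group in 20. Itga11 had a log2 signal of 4.67 in WT 2, against 4.96 to 5.01 in the other WT tumors. Tns1 was at 5.88 in WT 2, against 6.12 to 6.13 in the other WT tumors. Fermt2 was at 8.63 in cKO 3, against 8.87 to 8.91 in the other cKO tumors.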

How the results depend on the processing

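No member passed the adjusted threshold under any of the 16 alternatives. Parvg, Fermt3, Itgbl1 and Itga3 kept their direction and an unadjusted p below 0.05 in all 16, Itga11 in 15, Itgav in 13, Itga2 in 12, Itgb2 in 9 and Tln2 in 8. The filter on dim rows left Itga11 out, so these 15 are all the alternatives that tested Itga11. Leaving out 1 tumor gave 2 to 4 members higher and 3 to 8 lower at an unadjusted p, 2 to 4 higher and 2 to 5 lower without overlap, and 5 to 14 other adhesion genes. The median difference of the epithelial members then ran from −0.24 to −0.0087. Mmp14 ran from −1.48 to −1.30, with limma's adjusted p from 0.0429 to 0.211, above the threshold without cKO 2, cKO 4 or any 1 WT tumor. Deviations of tumors with the same replicate number correlated by −0.02, −0.20, 0.29 and −0.24 for numbers 1 to 4. Those with unlike numbers correlated by −0.34 to 0.37, so these values cannot decide whether the numbers pair tumors. With a replicate block the counts were 2 higher and 8 lower, and Mmp14 stood at −1.40 with an adjusted p of 0.353. With arrays 1 to 4 and 5 to 8 as blocks 8 members were lower and Mmp14 stood at −1.40 with an adjusted p of 0.0708. The causes of these moves were not tested, and a fit without 1 tumor also has fewer tumors. No partner pair passed after subtraction of the group means or after quantile normalization, the 2 alternatives run for pairs.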

Other observations

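All 861 pairs of measured members were also correlated over the 8 tumors, a search added after the data were seen. None passed after adjustment, with 84 at an unadjusted exact permutation p below 0.05. The smallest p for r belonged to Itgb6 with Tln2, at an r of 0.96 (exact permutation p 0.000149, adjusted p 0.0747) and a rho of 0.95 (adjusted p 0.275). Itga2 with Zyx came next, at an r of 0.92 (exact permutation p 0.000174, adjusted p 0.0747) and a rho of 0.98 (adjusted p 0.171). The pairs of Fermt1 that follow were weaker in adjusted p for r. Fermt1, whose signal ranged over 3.22 log2 units, followed Ddr2 with a Pearson's r of 0.83 (exact permutation p 0.0100, adjusted p 0.333) and a Spearman's rho of 0.93 (exact permutation p 0.00223, adjusted p 0.275), and with an r of 0.59 without the 2 tumors farthest from the median of Ddr2. After subtraction of the group means r was 0.96. With Itgb7, which was dim, Fermt1 had an r of −0.90 (exact permutation p 0.00290, adjusted p 0.287) and a rho of −0.93 (exact permutation p 0.00223, adjusted p 0.275), and an r of −0.86 without the 2 tumors farthest from the median of Itgb7. The pair of Itgb4 and Fermt1 did not reach the unadjusted cut over the 8 tumors, with an r of −0.71 (exact permutation p 0.0528, adjusted p 0.4998). Its rho was −0.67 (exact permutation p 0.0831, adjusted p 0.695), and its r was −0.64 without the 2 farthest tumors. After subtraction of the group means its r was −0.76, with a p of 0.0417 by exact permutation within the groups and an adjusted p of 0.598.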
